A study of Homo sapiens with 18 samples.

Results

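The genes described here make, sense, move and export cholesterol and fatty acids in MDA-MB-231 cells, a line of triple-negative breast cancer cells, grown as spheroids with different amounts of the Notch ligand Jagged1 (gene symbol JAG1). They were 36 genes chosen by name: 18 enzymes of sterol synthesis, 6 genes of sterol sensing and transport, 7 enzymes of fatty acid synthesis and 5 genes of the liver X receptor (LXR) and cholesterol efflux, out of 21119 rows with a gene symbol. All 36 were found in the tables, and 35 of them passed the filter on low values. The 36th, ABCG1, an exporter of cholesterol, had at most 4 counts in any library, so its change could not be read at this depth.

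Cells build cholesterol from acetyl-CoA by way of mevalonate, squalene and lanosterol, and the membrane-bound transcription factor SREBP2, the product of SREBF2, switches on most enzymes of this route when sterols run low. SREBP1, from SREBF1, acts mainly on the genes of fatty acid synthesis and desaturation, and INSIG1 holds both factors in the endoplasmic reticulum when sterols are plentiful. When sterols are in excess, oxysterols activate the nuclear receptors LXR beta and LXR alpha (NR1H2 and NR1H3), which raise the exporters ABCA1 and ABCG1 and MYLIP, a ubiquitin ligase that limits the uptake of lipoproteins. In tumour cells these pathways supply membrane for growth.

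RNA was sequenced from 18 libraries, 3 for each of 6 conditions, all from spheroids taken on day 7 after 50000 cells per well had been seeded in Matrigel. In all of them the Matrigel was at 2 mg/ml and the medium, with 10% serum, was changed once, on day 4. Jag1WT cells had the JAG1 genotype of the line, and Jag1KO cells were a mix of clones edited with Cas9 at JAG1. Jag1KO + rescue and Jag1KO + ctrl were those knockout cells carrying a plasmid with Jagged1 cDNA or the empty plasmid, both kept under G418 selection. siJag1 and siCtrl were Jag1WT cells transfected before seeding with small interfering RNAs (siRNA) against Jagged1 or with a nontargeting one. The labels called the 3 libraries of a condition biological replicates and did not say more about how the cultures were separated. Total counts per library ran from 10330581 to 18327890. VIM, CD44, AXL and EGFR, markers of this line, were high in every library (VIM from 2184 to 4946 CPM), ESR1, PGR, ERBB4 and CDH1 were at or near 0 (at most 1.77 CPM), while SPARC, listed as present in the line, was near 0 too (at most 1.24 CPM) and GATA3, listed as absent, was at 5.25 to 11.5 CPM. Of 8 markers of other cell types looked up, PTPRC, CDH5, ALB, APOA1 and PDGFRB had at most 1.35 CPM, PECAM1 had 0.954 to 15.1 CPM, COL1A1 2.66 to 10.0 CPM and CD68, a lysosomal protein that tumour lines also make, 88.9 to 209 CPM.

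Levels are given in CPM, read counts that the authors scaled to a common library total and composition, and they compare a gene between libraries. Levels of different genes were set side by side only in RPKM, which also divides by length and was used for the 5 conditions other than siJag1. Changes are log2 fold changes with their standard error (SE) from edgeR's quasi-likelihood test on the counts, n = 3 against 3, and each is coded so that a positive value means higher in the condition with more Jagged1. A gene was called at a Benjamini-Hochberg adjusted p under 0.05 over all genes tested together with a fold change over 1.5. The 3 comparisons by Jagged1 (Jag1WT against Jag1KO, rescue against ctrl, siCtrl against siJag1) share no library, and their mean was tested over all 18 libraries.

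JAG1 itself checked the labels. It stood at 433, 585 and 522 CPM in Jag1WT and at 116, 205 and 149 CPM in Jag1KO replicates 1, 2 and 3. It stood at 534, 657 and 646 CPM with the rescue plasmid and at 110.2, 134 and 147 CPM with the empty one. It stood at 441, 626 and 531 CPM in siCtrl and at 166, 203 and 131 CPM in siJag1. The groups did not overlap in any of the 3 comparisons, and the reads left in Jag1KO do not say how much protein they encode. The log2 fold changes were 1.71 ± 0.22 (adjusted p = 0.0162), 2.22 ± 0.18 (adjusted p = 0.0229) and 1.68 ± 0.19 (adjusted p = 0.111), the last not called. With the replicate number kept as a block in siCtrl against siJag1 JAG1 was called (1.69, adjusted p = 0.0179), as it was under 4 of 8 alternative settings there (this block among them), and the block changed no call of the 36 genes in that comparison. With single libraries left out JAG1 was called in 2 of 6 fits of Jag1WT against Jag1KO, 1 of 6 of rescue against ctrl and 1 of 6 by siRNA, and in 18 of 18 of the mean comparison (1.86 ± 0.13, adjusted p = 7.43e-07).

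Of the efflux and LXR genes, ABCA1 lay higher in the condition with more Jagged1 in each of the 3 comparisons and was called in Jag1WT against Jag1KO. ABCA1, which loads cellular cholesterol and phospholipid onto apolipoproteins, has the Entrez number 19 in the files and lies on the minus strand at chr9:104781006-104928155 (hg38). It had 44.4, 70.8 and 55.2 CPM in Jag1WT and 18.1, 22.5 and 18.2 CPM in Jag1KO. It had 29.9, 36.5 and 34.6 CPM in Jag1KO + rescue and 12.2, 8.51 and 19.0 CPM in Jag1KO + ctrl. In both pairs every library with more Jagged1 lay above every library with less. It had 48.0, 80.7 and 64.2 CPM in siCtrl and 26.7, 25.9 and 39.7 CPM in siJag1, again without overlap. Groups lay apart in this direction in all 3 comparisons for 37 of 12757 genes (0.29%), and ABCA1 was the one of the 36 genes among them. Across pairs its level did not follow that of JAG1. Mean ABCA1 was 33.7 CPM with rescue, 56.8 CPM in Jag1WT and 30.7 CPM in siJag1, where mean JAG1 was 612, 513 and 167 CPM. Rescue was not tested against Jag1WT.

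The mean level of ABCA1 was 56.8 ± 13.3 CPM (SD, n = 3) in Jag1WT and 19.6 ± 2.47 CPM in Jag1KO, a log2 fold change of 1.53 ± 0.19 or 2.88-fold (adjusted p = 0.0157). It was called higher there, as were 53 of 12879 genes (0.412%), and none of the 36 genes was called lower against 39 genes (0.303%) in all. In the rescue comparison the change was 1.34 ± 0.29 (adjusted p = 0.104), and by siRNA it was 1.07 ± 0.23 (adjusted p = 0.863). Neither was called: the rescue comparison called 1 gene higher (0.00778%) and none lower (0.0%), though 3954 of its 12850 genes (30.8%) had an unadjusted p under 0.05, and the siRNA comparison called 2 higher (0.0157%) and none lower (0.0%), with 489 of 12774 genes (3.83%) under that unadjusted p. In Jag1WT against Jag1KO 1134 of 12879 genes (8.81%) were under it. DESeq2 called ABCA1 higher in both, with adjusted p = 0.00135 and 0.00751, where it called 4.45% and 0.172% of all genes higher.

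Over the 3 comparisons together the mean log2 fold change of ABCA1 was 1.31 ± 0.15 (adjusted p = 0.000387). It was called higher as were 45 of 12757 genes (0.353%), and it remained called when each of the 18 libraries was left out in turn (1.23 to 1.42). An exact permutation test of ABCA1 alone, two-sided and within the 3 comparisons, gave an unadjusted p = 0.00025, the smallest that the 8000 arrangements allow, with the same test run for each of the 36 genes. Since the groups of ABCA1 lay apart in all 3 comparisons, this value follows from that separation and adds no further support. No difference between comparisons in the size of the change passed its test: the differences were 0.21 ± 0.36 (knockout minus rescue, adjusted p = 0.762), 0.45 ± 0.33 (knockout minus siRNA, adjusted p = 0.999) and 0.25 ± 0.39 (rescue minus siRNA, adjusted p = 0.736).

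**Figure D1:**
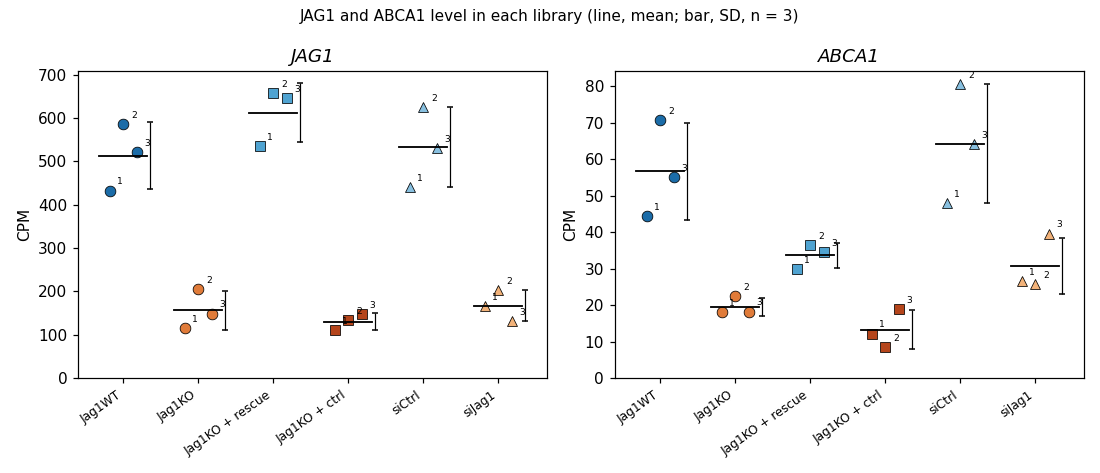
JAG1 (left) and ABCA1 (right) in CPM on the vertical axis for the 6 conditions on the horizontal axis, 1 point per library with its replicate number, the line at the mean and the bar 1 SD to each side (n = 3). For both genes the 3 libraries of the condition with more Jagged1 lie above the 3 of its partner, and ABCA1 is lowest in Jag1KO + ctrl, at 12.2, 8.51 and 19.0 CPM.

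The call in Jag1WT against Jag1KO depended on single libraries. It was lost without Jag1WT replicate 2 (adjusted p = 0.0718), without Jag1WT replicate 3 (0.117), without Jag1KO replicate 2 (0.0573) and without Jag1KO replicate 3 (0.132), while the log2 fold change stayed between 1.34 and 1.68. Without Jag1KO + ctrl replicate 3 the rescue comparison called ABCA1 as well (1.70, adjusted p = 0.00349). ABCA1 was not called between both Jagged1-low or both Jagged1-high groups that were compared: −0.58 ± 0.29 for Jag1KO + ctrl against Jag1KO and 0.17 ± 0.21 for siCtrl against Jag1WT, comparisons in which edgeR called no gene (0.0% in each), with 753 and 176 genes under an unadjusted p of 0.05, and DESeq2 called 12 higher and 1 lower in the first and 0 in the second. These 2 comparisons use the same libraries as the others.

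Per length, ABCA1 stood at 5.21 ± 1.22 RPKM in Jag1WT (SD, n = 3), near the level of the sterol enzymes MVD (5.19 ± 0.400) and MVK (5.74 ± 0.591) and below HMGCS1 (11.0 ± 1.81) and SCD (157 ± 35.5) in the same libraries. Its lowest mean level was in Jag1KO + ctrl, at 1.22 ± 0.488 RPKM. The 250 bases before its start site (RefSeq, GRCh38.p14, chr9:104928156-104928405, minus strand) are shown because it was the gene called, a choice made after its values were seen. Capitals mark GGGCGG, the letters of an Sp1 box, found at 3 places here.

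ABCA1: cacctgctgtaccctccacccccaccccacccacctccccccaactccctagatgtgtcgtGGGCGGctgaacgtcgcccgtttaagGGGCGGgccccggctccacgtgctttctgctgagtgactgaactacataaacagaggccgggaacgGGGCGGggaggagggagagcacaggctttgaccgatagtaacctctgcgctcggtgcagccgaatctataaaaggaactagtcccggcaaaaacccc

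In windows of 300 bases (250 before and 50 after the start site) GGGCGG stood, on either strand, in 45.0% of all 35116 RefSeq windows and in 38 of the 44 windows of these genes. A strict pattern for the LXR DR4 element, a spaced pair of nuclear receptor sites, matched 0.0854% of all windows and 0 of these 44, ABCA1 included. It misses elements that depart from its letters by even 1 base, as working LXR elements can, so that no match does not show that such an element is absent. The ABCA1 bases printed above hold tgaccgatagtaacct, which resembles such a spaced pair and departs from the strict letters. Binding there was not tested. Windows were on hand for 31 of the 36 genes.

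MYLIP, the LXR-driven ubiquitin ligase, was not called in any comparison. It had 33.8, 28.3 and 32.8 CPM with rescue and 18.2, 19.5 and 27.0 CPM with ctrl, groups that lay apart (as for 16.5% of all genes), at a log2 fold change of 0.54 ± 0.19 that was not called (adjusted p = 0.124). In the other comparisons its groups overlapped, at −0.07 ± 0.19 for Jag1WT against Jag1KO and −0.13 ± 0.14 for siRNA. NR1H2, which encodes LXR beta, had log2 fold changes of −0.12 ± 0.14, −0.47 ± 0.12 and 0.28 ± 0.13 in the same order, and its levels were 45.5, 44.8 and 44.3 CPM with rescue against 64.6, 59.1 and 62.0 CPM with ctrl, but 57.6, 48.0 and 47.9 CPM in siCtrl against 42.3, 38.6 and 46.1 CPM in siJag1. The last 2 changes point opposite ways without a call, and the test of their difference gave −0.77 ± 0.16 (adjusted p = 0.0685). NR1H3, which encodes LXR alpha, was low in all 18 libraries, with 4.36, 4.03 and 3.81 CPM with rescue and 5.40, 5.33 and 4.57 CPM with ctrl, which lay just apart, as for 16.0% of all genes (−0.33 ± 0.22, adjusted p = 0.311). Its changes in the other comparisons were 0.19 and 0.08. ABCG1 was listed at 0 in 9 libraries, and its highest value was 0.261 CPM, in Jag1KO replicate 1, so no fold is given for it. Over the 4 LXR and efflux genes tested the median log2 fold change of the mean comparison was 0.04, against −0.01 over all genes, and 1 of 4 was called.

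Among 8 other genes of the LXR pathway edgeR called none when fitted to each comparison alone or to their mean, while 1 of 8 by knockout, 4 by rescue and none by siRNA had an unadjusted p under 0.05 (8.81%, 30.8% and 3.83% of all genes did), and DESeq2 called 1, ABCG2 with rescue, as it called 4.45% of all genes higher. SMPDL3A, an LXR-responsive phosphodiesterase, had 0.23 ± 0.14 in Jag1WT against Jag1KO and −0.39 ± 0.18 in the rescue comparison, with groups apart in opposite directions. Groups lay apart in these directions for 7.24% and 16.0% of all genes. ABCG2, an exporter related to ABCG1, had 0.65 ± 0.17 with rescue and −0.30 ± 0.19 in Jag1WT against Jag1KO. SCARB1, a receptor for high-density lipoprotein, had 35.5, 35.3 and 40.2 CPM in Jag1WT and 42.7, 54.5 and 55.2 CPM in Jag1KO (−0.46 ± 0.14, adjusted p = 0.351). Its groups did not overlap, as for 6.58% of all genes in that direction.

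Of the 6 genes that sense and move sterols none was called by DESeq2, or by edgeR fitted to each comparison alone, in any of the 3 comparisons. With all 18 libraries in 1 fit NPC2 was called lower with rescue, as were 10.7% of all genes. By edgeR fitted to each comparison alone, none of the 6 by knockout, 2 by rescue and 1 by siRNA had an unadjusted p under 0.05, where 8.81%, 30.8% and 3.83% of all genes did. Their medians were −0.16, −0.37 and −0.16 in these comparisons, beside −0.01, 0.00 and −0.01 over all genes. INSIG1, the sterol-controlled anchor of the SREBPs, had the highest level per length of the 6, at 115 ± 24.8 RPKM in Jag1WT and 228 ± 21.4 in Jag1KO + ctrl. It had 292, 347 and 446 CPM in Jag1WT and 353, 518 and 599 CPM in Jag1KO, which overlap (−0.44 ± 0.23, adjusted p = 0.624). It had 431, 564 and 694 CPM with rescue and 761, 752 and 640.2 CPM with ctrl (−0.36 ± 0.20, adjusted p = 0.244). It had 307, 308 and 409 CPM in siCtrl and 289, 467 and 442 CPM in siJag1 (−0.22 ± 0.21). The 3 Jag1KO + ctrl libraries were thus among the highest 4 of 18, and the lowest values stood in replicates 1 of siJag1, Jag1WT and siCtrl.

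SREBF2 had 197, 164 and 201 CPM with rescue and 256, 272 and 203 CPM with ctrl (−0.39 ± 0.16, adjusted p = 0.148), and its other changes were −0.20 and −0.11. Its rescue and ctrl groups lay apart by a small margin, as for 16.0% of all genes in that direction. SREBF1 had 158, 148 and 156 CPM in siCtrl and 109, 90.5 and 141 CPM in siJag1, apart in the other direction as for 5.15% of all genes (0.45 ± 0.16, adjusted p = 0.970), while its other changes were −0.01 and −0.16. STARD4, a carrier of sterols in the cytosol, had changes of −0.32, −0.46 and −0.37. STARD4 thus lay below 0 in each, without a call. NPC2, which hands cholesterol to NPC1 inside the lysosome, had −0.11, −0.69 and −0.30, with 68.2, 74.9 and 68.1 CPM in siCtrl and 79.7, 103 and 78.5 CPM in siJag1 lying apart, as for 5.32% of all genes. NPC1, the lysosomal membrane exporter, had the opposite sign with rescue, with 418, 516 and 471 CPM in the rescue libraries and 245, 259 and 442 CPM in ctrl (0.56 ± 0.25, adjusted p = 0.166). Low NPC1 thus stood in Jag1KO + ctrl replicates 1 and 2, and replicate 3 was at the level of the rescue libraries.

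The 250 bases before the start site of SREBF2 (RefSeq, GRCh38.p14, chr22:41832855-41833104, plus strand) are printed because it was the one window among those of these genes that held TCACNCCAC, the letters of a sterol regulatory element. That stretch starts 133 bases before the start site, and capitals also mark a CCAAT box on the other strand, read here as ATTGG, that starts 106 bases before it.

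SREBF2: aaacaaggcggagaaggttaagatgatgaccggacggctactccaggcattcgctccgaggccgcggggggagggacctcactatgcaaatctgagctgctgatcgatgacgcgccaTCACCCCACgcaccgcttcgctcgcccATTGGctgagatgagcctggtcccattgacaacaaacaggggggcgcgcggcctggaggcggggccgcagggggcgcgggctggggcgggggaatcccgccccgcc

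TCACNCCAC stood on either strand in 396 of 35116 windows (1.13%) and CCAAT in 34.6%, against 27 of the 44 windows of these genes for CCAAT. A match describes letters and was not tested for binding.

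The 18 enzymes of sterol synthesis were high together in a few libraries of the conditions with less Jagged1, and edgeR, fitted to each comparison alone, called none of them. With all 18 libraries in 1 fit, which shares the spread, it called 12 of the 18 lower with rescue, as it called 10.7% of all genes, and none in the others. In Jag1WT against Jag1KO 16 of 18 log2 fold changes were below 0, with a median of −0.27 against −0.01 over all genes, and none had an unadjusted p under 0.05 by edgeR (2 by DESeq2). In the rescue comparison 18 of 18 were below 0, with a median of −0.98 against 0.00 over all genes, and 13 had an unadjusted p under 0.05 by edgeR, as did 30.8% of all genes, and DESeq2 called 12 lower, as it did 7.74% of all genes. By siRNA 17 of 18 were below 0, with a median of −0.38 against −0.01 over all genes, and 1 had an unadjusted p under 0.05 by edgeR (4 by DESeq2). Neither DESeq2 nor limma called an enzyme of this list in Jag1WT against Jag1KO or by siRNA.

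HMGCS1, the synthase that makes HMG-CoA, shows the pattern. It had 69.7, 63.5 and 91.5 CPM in the rescue libraries and 215, 284 and 84.4 CPM in Jag1KO + ctrl replicates 1, 2 and 3. It had 52.5, 57.5 and 71.7 CPM in Jag1WT and 54.6, 62.3 and 102 CPM in Jag1KO. It had 49.0, 48.9 and 57.9 CPM in siCtrl and 50.1, 142 and 71.0 CPM in siJag1. The high values were thus those of Jag1KO + ctrl replicates 1 and 2, siJag1 replicate 2 and Jag1KO replicate 3, and every other library lay between 48.9 and 91.5 CPM. The log2 fold changes were −0.27 ± 0.24, −1.38 ± 0.39 and −0.75 ± 0.35, with adjusted p = 0.790, 0.107 and 0.970.

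These 4 libraries were the highest 4 of 18 for 12 of the 18 enzymes, and held at least 3 of the highest 4 places for 17, against 2 of 7 and 5 of 7 of the fatty acid enzymes and 0 of the 4 LXR and efflux genes tested. Jag1KO + ctrl replicates 1 and 2 were the highest pair for 14. The 4 libraries were named from the levels of HMGCS1, which is itself among the 18 enzymes counted. The same places were not counted over all genes, so these numbers are a description and no test. FDFT1, the squalene synthase that commits the route to sterols, had 219.8, 267 and 74.9 CPM in Jag1KO + ctrl, 64.1, 172 and 58.1 CPM in siJag1 and 57.0, 111 and 132 CPM in Jag1KO, and between 58.1 and 73.6 CPM in all 9 libraries with more Jagged1. FDPS, which makes farnesyl diphosphate, had 247, 303 and 79.1, 71.3, 209 and 74.3 and 66.0, 170.1 and 173 CPM in the same groups and order. For both, replicate 3 of Jag1KO + ctrl, replicates 1 and 3 of siJag1 and replicate 1 of Jag1KO were close to the libraries with more Jagged1, and Jag1KO replicate 2 joined replicate 3 above them. FDPS reads can be shared with near-identical pseudogene copies, as can those of HSD17B7, and the counting of such reads was limited to unique alignments.

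ACAT2, the cytosolic thiolase that starts the route, had the highest ratio of largest to smallest level in the list, from 12.9 to 116 CPM. It had 12.9, 60.6 and 62.9 CPM in Jag1KO against 15.1, 26.5 and 19.2 CPM in Jag1WT (−1.17 ± 0.52, adjusted p = 0.570). It had 83.7, 116 and 18.4 CPM in ctrl against 13.1, 32.9 and 17.5 CPM in rescue (−1.78 ± 0.63, adjusted p = 0.123). The groups overlapped in both, since the third ctrl library and the first knockout library were among the low ones. ACAT2 overlaps exons of TCP1 on the opposite strand, and whether the counting used strand is not given in the sources used here.

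EBP, a sterol isomerase, MVD, the mevalonate decarboxylase, MVK, the mevalonate kinase, LSS, which closes the sterol rings, HSD17B7 and TM7SF2, both sterol reductases, and FDFT1 had rescue and ctrl groups that did not overlap, all lower with rescue. Groups lay apart in that direction for 16.0% of all genes in this comparison and in the other for 16.5%, so that 7 of 18 is to be read against that share. EBP had 10.7, 14.4 and 12.5 CPM with rescue and 42.1, 64.8 and 15.9 CPM with ctrl (−1.71 ± 0.45, adjusted p = 0.105). HSD17B7 had 9.13, 9.61 and 12.4 CPM with rescue and 23.6, 24.6 and 12.6 CPM with ctrl (−0.97 ± 0.28, adjusted p = 0.107). LSS had 73.8, 55.5 and 75.0 CPM with rescue and 135, 162 and 78.3 CPM with ctrl (−0.89 ± 0.26, adjusted p = 0.107). In each of these 3 the third ctrl library was close to the highest rescue library, and replicates 1 and 2 carried the gap. MVD, MVK and TM7SF2 had −1.46 ± 0.38, −0.93 ± 0.30 and −1.13 ± 0.33. TM7SF2 shares exon sequence with VPS51 on its own strand and MVK with MMAB on the other, so their counts are less certain.

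In Jag1WT against Jag1KO groups lay apart for 7.24% of all genes (higher) and 6.58% (lower), and for none of the 18 enzymes. By siRNA the shares were 5.15% and 5.32%, and 2 enzymes lay apart, both lower in siCtrl. MSMO1, the methylsterol oxidase, had 75.1, 65.4 and 73.7 CPM in siCtrl and 78.2, 147 and 86.4 CPM in siJag1 (−0.54 ± 0.24, adjusted p = 0.970). SC5D, a sterol desaturase, had 46.5, 42.4 and 44.8 CPM in siCtrl and 58.6, 78.5 and 53.3 CPM in siJag1 (−0.51 ± 0.16, adjusted p = 0.970), while in Jag1WT against Jag1KO its change was 0.08 ± 0.16.

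DHCR7, the last reductase of the route, had 68.6, 85.3 and 118 CPM in Jag1KO and 66.8, 59.5 and 75.5 CPM in Jag1WT (−0.44 ± 0.20, adjusted p = 0.588). Its ctrl values were 181, 203 and 80.6 CPM and its siJag1 values 56.2, 127 and 59.0 CPM, so that its high libraries were those of FDFT1. DHCR7, CYP51A1, the lanosterol demethylase, and IDI1, an isomerase of isoprenoid units, had rescue changes of −1.16 ± 0.32, −0.85 ± 0.27 and −0.33 ± 0.28. SQLE, the squalene epoxidase, had −0.26, −0.41 and −0.21 in the 3 comparisons. PMVK, the kinase after MVK, and NSDHL, a sterol dehydrogenase, varied least: PMVK kept between 20.9 and 29.8 CPM in all 18 libraries, with −0.15 ± 0.17 in the rescue comparison, and NSDHL had −0.22 ± 0.23 there. PMVK thus kept within a narrow range also in the libraries where other enzymes were high, while NSDHL was highest in Jag1KO + ctrl replicate 2, at 53.6 CPM.

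**Figure D2:**
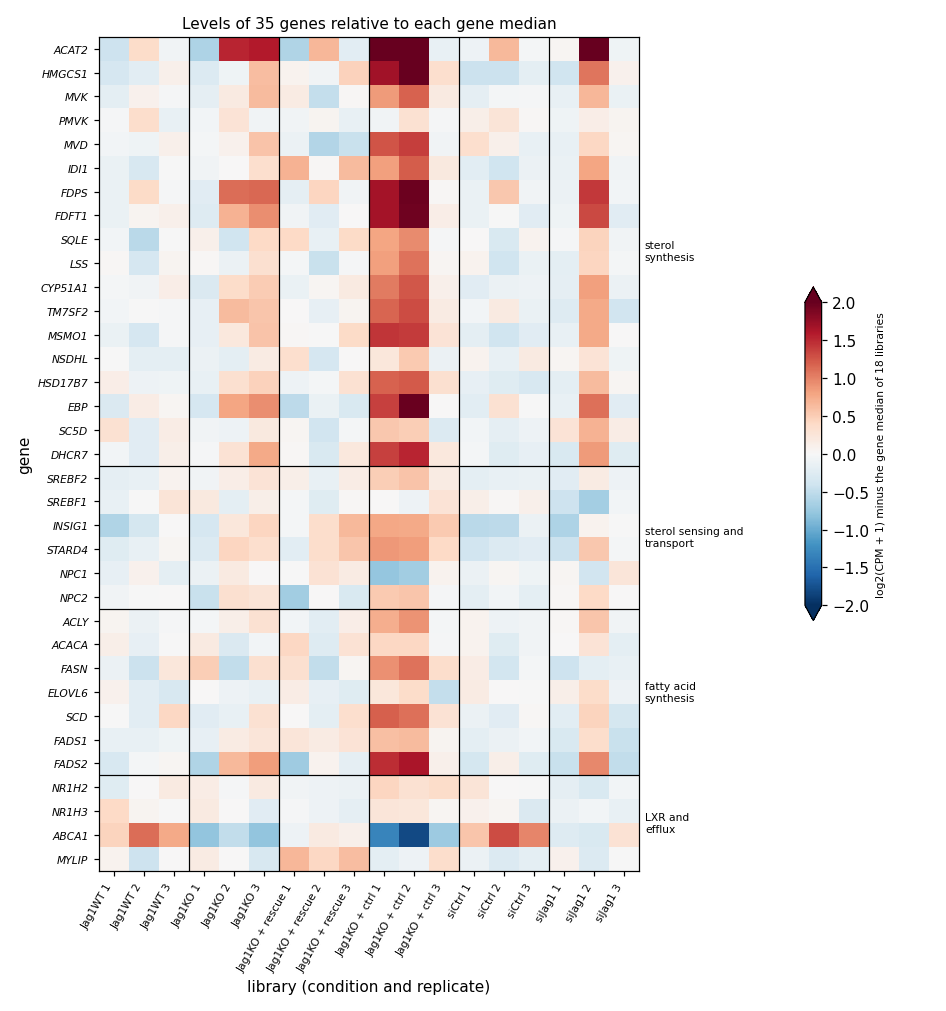
Map of 35 genes (rows, grouped by list) in 18 libraries (columns, by condition and replicate), coloured by log2(CPM + 1) minus the median of that gene over the 18 libraries, with differences past 2 given the end colours. Jag1KO + ctrl replicates 1 and 2 and siJag1 replicate 2 are red for most sterol and fatty acid enzymes and Jag1KO replicates 2 and 3 for several, while ABCA1 is red in Jag1WT and siCtrl and blue in Jag1KO and Jag1KO + ctrl.

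**Figure D3:**
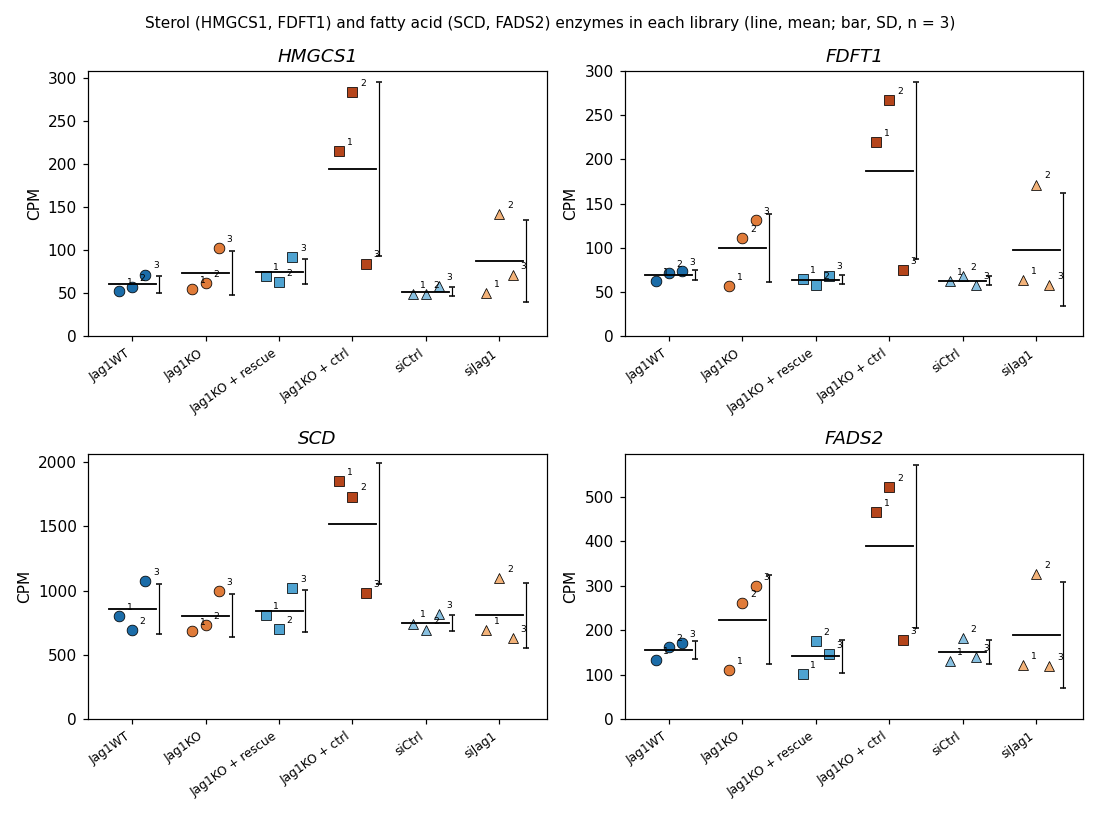
HMGCS1, FDFT1, SCD and FADS2 in CPM on the vertical axis for the 6 conditions on the horizontal axis, 1 point per library with its replicate number, the line at the mean and the bar 1 SD to each side (n = 3). In Jag1KO + ctrl replicates 1 and 2 stand far above replicate 3 for all 4 genes, as HMGCS1 shows with 215, 284 and 84.4 CPM.

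The mean comparison over 18 libraries had all 18 enzymes below 0, with a median of −0.58 and 15 with an unadjusted p under 0.05 where 26.6% of all genes had one. It called none of them, and 74 of all genes (0.58%), lower, while the fit with the replicate number as a block called FDPS and EBP lower, as it did 2.28% of all genes. The nearest to the threshold were MSMO1 (−0.66 ± 0.17, adjusted p = 0.0574), HSD17B7 (−0.58 ± 0.16, 0.0663) and FDFT1 (−0.92 ± 0.25, 0.0676). The medians moved towards or past 0 without the libraries named above. With Jag1KO replicates 2 and 3 left out, which leaves Jag1KO with replicate 1 alone, the median of Jag1WT against Jag1KO turned to 0.16, with 5 of 18 below 0. Without Jag1KO + ctrl replicates 1 and 2, which leaves ctrl with replicate 3 alone, the median of the rescue comparison was −0.17, with 12 of 18 below 0. Without siJag1 replicate 2 the siRNA median was 0.07, with 7 of 18 below 0. With those 5 libraries left out the mean comparison had a median of 0.01, with 9 of 18 below 0, and ABCA1 had a log2 fold change of 1.14. In the knockout, rescue and siRNA fits just named the change of ABCA1 was 1.65, 0.80 and 0.97. With all libraries it was 1.53, 1.34 and 1.07, so the rescue change fell the most. These libraries were picked by their levels, and the fit assumes that a lone library varies like the other groups, so the values without them are a description and no test.

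Leaving out the opposite libraries made calls. Without Jag1KO + ctrl replicate 3, 15 of the 18 sterol enzymes were called lower with rescue (20 of the 35 genes, where 14.8% of all genes were called lower and 14.0% higher), together with ABCA1, MYLIP and NPC1 called higher. Without Jag1KO replicate 1, 6 of the 18 were called lower in Jag1WT (8 of 35, where 4.69% of all genes were): ACAT2, FDPS, FDFT1, TM7SF2, EBP and DHCR7. The mean comparison called 12 of the 18 lower without Jag1KO + ctrl replicate 3 (13 of 35, against 4.82% of all genes) and 8 without Jag1KO replicate 1 (9 of 35, against 2.26%). DESeq2 with all 6 libraries called 12 of the 18 lower with rescue (15 of 35, against 7.74% of all genes).

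Jag1KO + ctrl against Jag1KO, which share the knockout, is the comparison in which Jagged1 was low on both sides: 18 of 18 enzymes were above 0, with a median of 0.65 against −0.01 over all genes, 5 had an unadjusted p under 0.05, as did 5.81% of all genes, and none was called by edgeR or DESeq2. HMGCS1 had 1.40 ± 0.44 there (adjusted p = 0.757). Without Jag1KO + ctrl replicate 3, HMGCS1, MSMO1 and SCD were called higher in that comparison, where 0.881% of all genes were. The 3 libraries of Jag1KO + ctrl entered both this comparison and the one with rescue. siCtrl against Jag1WT had a median of −0.07 with 10 of 18 below 0.

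Another 2 sets of genes stood apart in the same libraries. The mean log2(CPM + 1) of 97 genes of the S and G2/M phases of the cell cycle was 5.72, 6.09 and 6.07 in Jag1KO + ctrl replicates 1 and 2 and siJag1 replicate 2, 5.55 and 5.67 in Jag1KO replicates 2 and 3, and 4.10 to 5.10 in the other 13 libraries. The same mean over 12 genes of ATF4 and amino acid stress was 6.84, 6.30 and 7.13 in the first 3 of these libraries and 7.74 to 8.20 in the other 15. For the 18 sterol enzymes it was 6.23, 6.47 and 5.94 in those 3, 5.44 and 5.71 in Jag1KO replicates 2 and 3, and 4.96 to 5.21 elsewhere. The sterol enzymes were thus high where the cell cycle genes were high, and in 3 of those 5 libraries the stress genes were low. The part of either set in the levels of the enzymes was not tested. ABCA1 was below its siCtrl, Jag1WT and rescue levels both in these 5 libraries and in the 4 other libraries of Jag1KO, Jag1KO + ctrl and siJag1, except siJag1 replicate 3 at 39.7 CPM, which exceeded the rescue libraries.

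**Figure D4:**
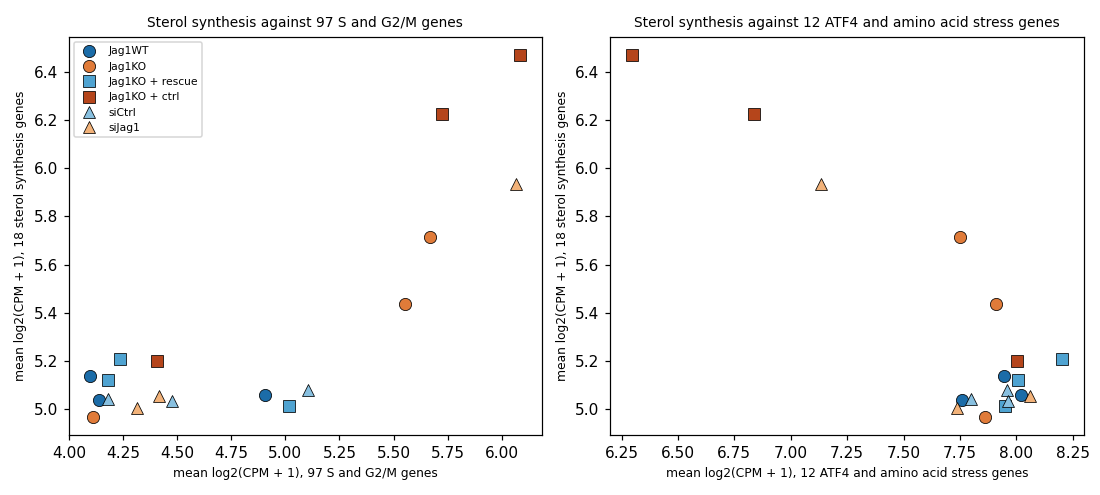
Mean log2(CPM + 1) of the 18 sterol synthesis enzymes (vertical axis) against that of 97 S and G2/M genes (left) and of 12 ATF4 and amino acid stress genes (right), 1 point per library, with shape and colour by condition. The 5 libraries above 5.4 on the vertical axis are Jag1KO replicates 2 and 3, Jag1KO + ctrl replicates 1 and 2 and siJag1 replicate 2, and the other 13 lie between 4.96 and 5.21.

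Among 13 other genes of the sterol pathway edgeR, fitted to each comparison alone, called none. In the rescue comparison 1 higher and 4 lower had an unadjusted p under 0.05, against 30.8% of all genes, and in the other comparisons none had one by edgeR. With rescue DESeq2 called 1 higher (OSBP) and 2 lower, TMEM97 among them, as it called 4.45% and 7.74% of all genes. TMEM97, the sigma-2 receptor, had 35.2, 49.3 and 8.36 CPM in Jag1KO + ctrl and 11.5, 6.65 and 8.97 CPM with rescue (−1.78 ± 0.56, adjusted p = 0.112). OSBP, an oxysterol-binding protein, had 153, 134 and 268 CPM in Jag1KO + ctrl and 439.8, 321 and 356 CPM with rescue (1.00 ± 0.28, adjusted p = 0.105). TMEM97 was thus high in Jag1KO + ctrl replicates 1 and 2, where OSBP was low, and replicate 3 had the lower TMEM97 and the higher OSBP of the group. The list as a whole had a median of −0.14 in the mean comparison, with 10 of 13 below 0.

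The 7 enzymes of fatty acid synthesis were highest in the same Jag1KO + ctrl libraries for the most part, and edgeR, fitted to each comparison alone, called none of them. With all 18 libraries in 1 fit 4 (ACLY, FASN, SCD and FADS2) were called lower with rescue, as were 10.7% of all genes. All 7 log2 fold changes were below 0 in the rescue comparison, with a median of −0.63 against 0.00 over all genes and 4 with an unadjusted p under 0.05 (30.8% of all genes), and DESeq2 called 3 lower (FASN, SCD and FADS2), as it did 7.74% of all genes. In Jag1WT against Jag1KO 5 of 7 were below 0 (median −0.17) and by siRNA 6 of 7 (median −0.10), and none had an unadjusted p under 0.05 in either, by edgeR or DESeq2. Jag1KO + ctrl replicates 1 and 2 were the highest pair for 6 of the 7, a count that was not made over all genes.

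SCD, which introduces the first double bond into saturated fatty acids, was the most abundant of the 36 per length in Jag1WT, at 157 ± 35.5 RPKM. It had 808, 702 and 1021 CPM with rescue and 1853, 1732 and 980.4 CPM with ctrl, which overlap (−0.86 ± 0.27, adjusted p = 0.111). It had 805, 694 and 1072 CPM in Jag1WT and 688, 729.7 and 999.8 CPM in Jag1KO (0.08 ± 0.21). FASN, the synthase of palmitate, had 336, 189 and 276 CPM with rescue and 504, 568 and 341 CPM with ctrl, groups that lay just apart (−0.83 ± 0.26, adjusted p = 0.111). In siJag1 replicate 2, where the sterol enzymes were high, FASN was at 234 CPM and so within the range of siCtrl.

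FADS2, a desaturase of polyunsaturated fatty acids, had the largest rescue change of the list, from 465, 521 and 178 CPM in ctrl to 101, 176 and 147 CPM with rescue, with the third ctrl library above the highest rescue library by less than 3 CPM (−1.46 ± 0.39, adjusted p = 0.105). It had 133, 162 and 172 CPM in Jag1WT and 109, 262 and 299 CPM in Jag1KO (−0.53 ± 0.33, adjusted p = 0.683). It had 131, 181 and 141 CPM in siCtrl and 122, 326 and 119 CPM in siJag1 (−0.32 ± 0.38). The high libraries were those of the sterol enzymes, Jag1KO replicates 2 and 3 included. FADS2 shares exon sequence with FEN1 on its own strand, so its counts are less certain. FADS1, the desaturase next to it on the opposite strand, whose exons overlap those of FADS2, had −0.22, −0.22 and −0.03.

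ACLY, which makes acetyl-CoA in the cytosol from citrate, had 299.6, 271 and 342 CPM with rescue and 520.4, 583 and 306 CPM with ctrl (−0.63 ± 0.24, adjusted p = 0.134). ACACA, the carboxylase that makes malonyl-CoA, and ELOVL6, an elongase, varied less, with −0.12 ± 0.20 and −0.17 ± 0.23 in the rescue comparison and values within ± 0.12 in the others. Without Jag1KO + ctrl replicate 3, ACLY, FASN, SCD and FADS2 were among the 20 genes called lower with rescue. Without Jag1KO + ctrl replicates 1 and 2 the median of the list was −0.03, and without siJag1 replicate 2 the siRNA median was 0.20.

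Of 13 other genes of fatty acid metabolism edgeR, fitted in the same way, called none. In the rescue comparison 4 lower had an unadjusted p under 0.05, against 30.8% of all genes, while in Jag1WT against Jag1KO 1 had one, and by siRNA none. With rescue DESeq2 called ACACB, ACSS2 and SCD5 lower, as it called 7.74% of all genes. MLXIPL, which encodes the glucose-sensing factor ChREBP, lay apart and higher with more Jagged1 in each of the 3 comparisons, as did 0.29% of all genes. Its levels were low and its margins small. It had 3.41, 3.23 and 2.15 CPM in Jag1WT and 2.09, 2.01 and 1.62 CPM in Jag1KO. It had 2.25, 2.33 and 2.46 CPM with rescue against 0.300, 0.300 and 1.99 CPM with ctrl, and 3.68, 3.64 and 4.19 CPM in siCtrl against 2.38, 1.51 and 3.43 CPM in siJag1. Its mean log2 fold change was 0.90 ± 0.27 (adjusted p = 0.0915). ACSS2, which activates acetate, had 60.6, 68.0 and 18.6 CPM in ctrl and 14.9, 17.9 and 21.8 CPM with rescue (−1.43 ± 0.43), and SCD5, a second stearoyl-CoA desaturase, had 40.0, 40.9 and 13.1 and 9.68, 10.3 and 12.5 CPM (−1.54 ± 0.40). Both were high in the same pair of ctrl libraries as SCD. ACACB, the mitochondrial carboxylase, had −1.78 ± 0.55.

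**Figure D5:**
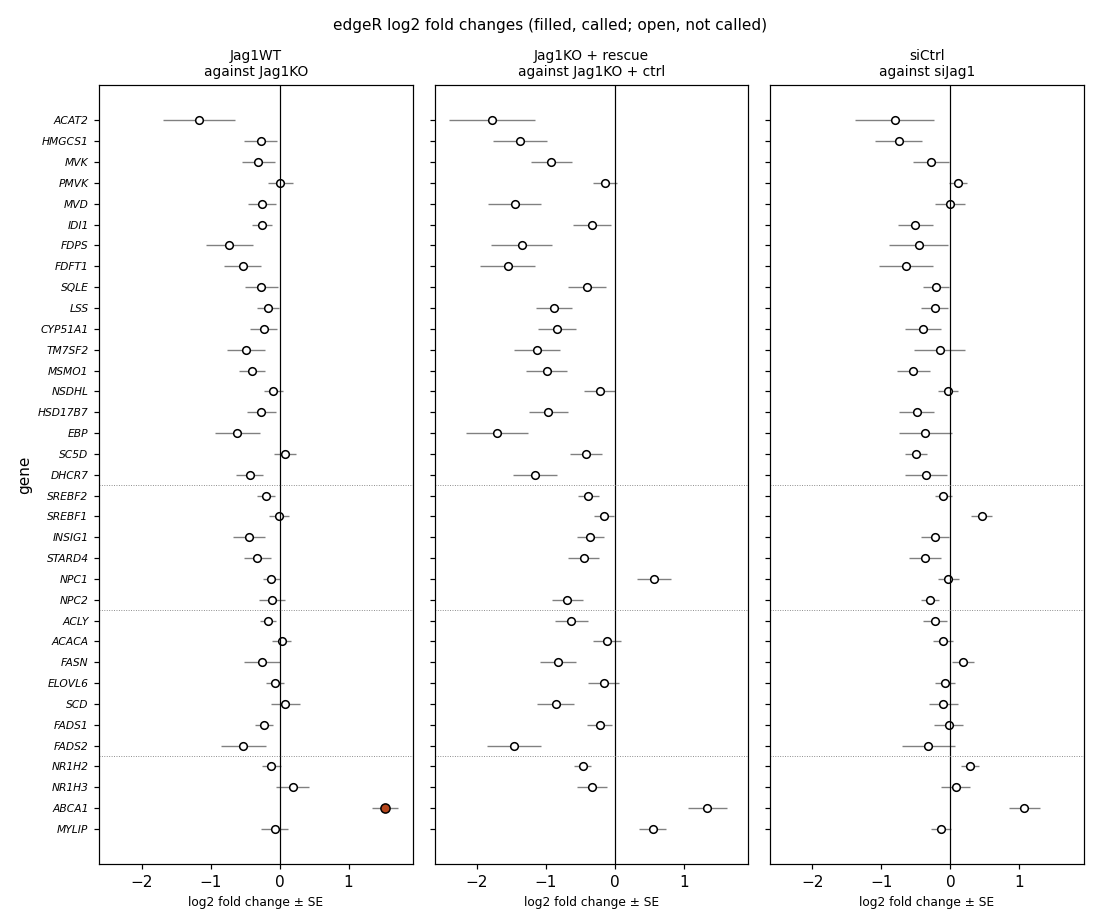
edgeR log2 fold change (horizontal axis, with 1 SE to each side) of 35 genes (vertical axis, grouped by list with dotted lines) in the 3 comparisons by Jagged1, filled where called. ABCA1 lies right of 0 in all 3, at 1.53, 1.34 and 1.07, and the sterol enzymes lie left of 0 by the most in the rescue comparison, with a median of −0.98.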

How the data were processed

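Poly(A) RNA of 18 spheroid cultures was sequenced as stranded libraries. Per the labels, the authors aligned the reads to hg38 and counted uniquely mapped reads per gene with featureCounts (their notes also name R 3.6.1 and edgeR 3.28.0), and the deposited counts are whole and not normalized. The deposited CPM values are a signal that the authors scaled by TMM, and they equal count over effective library size to rounding. The deposited RPKM values also divide by gene length, and 3 of their columns were not used, since their names match no sample.

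Rows without a symbol (292 of 21411, at most 0.0442% of counts) were left out. Counts were tested per comparison with edgeR 4.0.16 (TMM, quasi-likelihood F test, Benjamini-Hochberg adjustment over all genes tested) in R 4.3.3, for genes over 1 CPM in at least 3 of 6 libraries, and SE is the unshrunk log2 fold change over the root of F. The mean comparison and the differences between comparisons used the same test over 18 and 12 libraries. The edgeR, DESeq2 and limma log2(CPM + 1) fits of 1 comparison and the edgeR fit of the mean comparison were tested on simulated data. The other settings and the differences between comparisons were not. Alternatives were DESeq2 1.42.0, its size factors, limma 3.58.1 on log2(CPM + 1) and log2(CPM + 0.5), other low-count filters, 1 fit over 18 libraries, the replicate number as a block, and each library left out. Replicates differed by more than sampling noise (chi-square per degree of freedom 7.75 to 113), so none was merged. Totals had a median of 15168046.5 counts, and p-values measure the spread between these cultures alone.

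Same-numbered libraries of siCtrl and siJag1 deviated together (r = 0.543, 0.522 and 0.264 over 12774 genes), as a hint from the data that these numbers pair; the labels do not say so. The 36 genes and the lists were chosen with earlier results of these data known. All 36 are named, with those of the other pathway genes that illustrate a list, chosen after their values were seen. Gene positions come from GENCODE v44 and promoter windows from RefSeq. Some of the other pathway genes are not reported here by name.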

Additional observations from a re-analysis of the deposited data

How the results depend on the processing

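Counts of called genes among the 36 moved with the fit and the libraries. In Jag1WT against Jag1KO the count called higher was 0 to 1 with single libraries left out and 0 with Jag1KO replicates 2 and 3 left out, an alternative added after seeing the data, against 1, and the count called lower was 0 to 8 against 0. In the rescue comparison 1 was called higher and 15 lower by DESeq2, and 1 and 17 with all 18 libraries in 1 fit, against 0 and 0, and leaving out single libraries gave 0 to 3 higher and 0 to 20 lower. Of all genes DESeq2 called 4.45% higher and 7.74% lower there, and the fit of 18 libraries called 10.7% lower. By siRNA DESeq2 called 1 higher against 0. In Jag1KO + ctrl against Jag1KO leaving out single libraries gave 0 to 3 higher and 0 to 1 lower (NPC1, without Jag1KO + ctrl replicate 3). In the mean comparison the replicate block called 2 lower (FDPS and EBP) against 0, and leaving out single libraries gave 0 to 13 (2 without siJag1 replicate 1, MSMO1 and HSD17B7). The block changed no other count of these genes, and it moved JAG1 by siRNA past the threshold. Outside siCtrl against siJag1 and siCtrl against Jag1WT the same-numbered libraries of a comparison did not all deviate together (lowest r = −0.0137 for Jag1WT against Jag1KO, −0.207 for rescue against ctrl and −0.610 for Jag1KO + ctrl against Jag1KO). Over single genes, 2300 values kept their direction and side of the threshold, 97 passed it, 15 lost it and none turned where called. The cause of these changes was not tested. ROTS, the statistic the study used, was not run. At most 4 counts a library left ABCG1 untested.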
